A study of Mus musculus with 12 samples.

Results

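Pou2f3, Gfi1b and Spib encode 3 transcription factors used by tuft cells, a chemosensory cell type of the gut epithelium. They were chosen by name, as every probe set annotated to these genes, and the array carries 1 probe set for each, so that they make up 3 of the 17097 genes measured. The study isolated 6 populations of untreated primary cells from mouse small intestine by their level of Mex3a and of Lgr5. The populations were Mex3a High, Mex3a Low and Mex3a Neg cells with Lgr5 High, and the same 3 Mex3a levels with Lgr5 Low. Mex3a codes for a protein that binds RNA, while Lgr5, an R-spondin receptor gene, marks crypt base stem cells. The 2 biological replicates, MR793 and MR820, each gave all 6 populations, for 12 Affymetrix arrays in all, with RNA of 2000 cells amplified for 22 cycles. The labels used here give no strain, age or allele, and do not say what reported the Mex3a and Lgr5 levels or whether a replicate is 1 animal or a pool.

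Tuft cells are rare epithelial cells that sense luminal signals through a taste-type cascade and answer with the cytokine interleukin 25, leukotrienes and acetylcholine. Pou2f3 encodes a POU-domain factor that mice need in order to form tuft cells. Gfi1b encodes a zinc finger repressor that works with the demethylase Kdm1a and its partner Rcor1, and is best known from red cell and platelet precursors. Spib encodes an Ets-family factor that is also used by M cells, the antigen-sampling cells over lymphoid follicles, and by B cells and plasmacytoid dendritic cells. Markers of all these cell types were therefore followed beside the 3 genes.

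The promoters of Gfi1b and Spib are shown because the 3 genes moved together across the populations and 2 of them have an entry in the RefSeq promoter table used here, Pou2f3 not among them. Each run is the 250 bases before the gene's start in GRCm38.p6, read 5′ to 3′ along the minus strand on which the gene lies. Gfi1b spans chr2:28621983-28622232 and Spib chr7:44532072-44532321. Capitals mark, on either strand, AATC, the core recognised by GFI factors, and TGCAAAT, 7 letters of the octamer recognised by POU factors.
Gfi1b: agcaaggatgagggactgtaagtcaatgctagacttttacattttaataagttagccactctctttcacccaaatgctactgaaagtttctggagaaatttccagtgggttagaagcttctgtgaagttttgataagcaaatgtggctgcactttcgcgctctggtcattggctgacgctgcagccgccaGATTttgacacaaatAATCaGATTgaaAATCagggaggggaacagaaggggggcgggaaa
Spib: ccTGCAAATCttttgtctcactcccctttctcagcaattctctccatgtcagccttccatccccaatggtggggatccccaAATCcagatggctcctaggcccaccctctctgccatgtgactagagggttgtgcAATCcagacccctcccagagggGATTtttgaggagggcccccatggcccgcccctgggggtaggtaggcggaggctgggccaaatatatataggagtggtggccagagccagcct
The Gfi1b window holds 4 AATC matches, all between positions 191 and 221 counted from its 5′ end, a span of 31 bases. The Spib window also holds 4, spread over 155 bases, and 1 match to TGCAAAT at positions 3 to 9, which overlaps an AATC at positions 7 to 10. Of 32851 promoter windows of the same length, 69.0% hold AATC and 3.56% hold TGCAAAT. The full octamer ATGCAAAT, in 1.6% of the windows, and GAGGAA, the Ets core of the SPI type, in 23.3%, were searched on both strands and are in neither window. The motif letters were chosen after the sequences had been seen, and these matches describe letters, not binding.

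The values below are log2 expression levels made by the authors with RMA, and a difference of 1 is a 2-fold change. The array Mex3a High Lgr5 High MR793 stood apart from the other 11. Its correlation with the other arrays over all probe sets was 0.895 to 0.915, while those 11 correlated at 0.971 or more with each other, and its dim probe sets, those under the median, lay 0.27 higher than in the other arrays. Results that rest on this array are given with and without it. Lgr5 lay at 9.00 to 10.21 in Lgr5 High arrays and at 6.37 to 8.05 in Lgr5 Low arrays, which did not overlap, though the difference was not called at any Mex3a level (limma adjusted p = 0.104 to 0.227), while without the array that stood apart it was called at each (adjusted p = 0.00513 to 0.00901). Mex3a lay at 5.63 to 6.35 in Lgr5 High and at 5.44 to 5.71 in Lgr5 Low arrays and was called in none of the 10 comparisons. Its Mex3a High against Mex3a Neg difference was 0.29 in Lgr5 High cells (adjusted p = 0.542), or 0.034 without the array that stood apart, and 0.12 in Lgr5 Low cells (adjusted p = 1.00), so the Mex3a values do not check the Mex3a labels.

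All 3 genes were highest in the Mex3a High Lgr5 Low population, and in each case both of its arrays lay above the other 10, as for 4.42% of all probe sets. In Lgr5 High cells Pou2f3 stood at 6.82 in MR793 and 6.65 in MR820 of Mex3a High, at 6.34 and 5.58 in Mex3a Low and at 5.68 and 5.14 in Mex3a Neg. In Lgr5 Low cells it stood at 9.14 and 9.27 in Mex3a High, at 7.25 and 6.33 in Mex3a Low and at 5.06 and 5.19 in Mex3a Neg. Within each Lgr5 gate the Pou2f3 arrays of Mex3a High lay above those of Mex3a Low, as for 13.8% of probe sets in Lgr5 High and 17.8% in Lgr5 Low cells, but Mex3a Low and Mex3a Neg overlapped among Lgr5 High cells.

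Gfi1b stood at 5.90 in MR793 and 5.09 in MR820 of Mex3a High Lgr5 High, at 5.21 and 4.94 in Mex3a Low and at 5.13 and 4.90 in Mex3a Neg of that gate. In Lgr5 Low cells it stood at 7.27 and 7.04 in Mex3a High, at 5.48 and 5.14 in Mex3a Low and at 4.94 and 4.92 in Mex3a Neg. The 5.90 came from the array that stood apart, and without it no Gfi1b value outside Mex3a High Lgr5 Low exceeded 5.48, below the array medians of 5.83 to 6.05 over all probe sets.

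Spib stood at 6.56 in MR793 and 6.08 in MR820 of Mex3a High Lgr5 High, at 5.19 and 4.88 in Mex3a Low and at 5.06 and 4.97 in Mex3a Neg of that gate. In Lgr5 Low cells it stood at 10.24 and 10.26 in Mex3a High, at 7.94 and 6.05 in Mex3a Low and at 4.83 and 5.03 in Mex3a Neg. Both Mex3a High Lgr5 High arrays lay above the other 4 arrays of the Lgr5 High gate, and Mex3a Low and Mex3a Neg overlapped there.

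**Figure D1:**
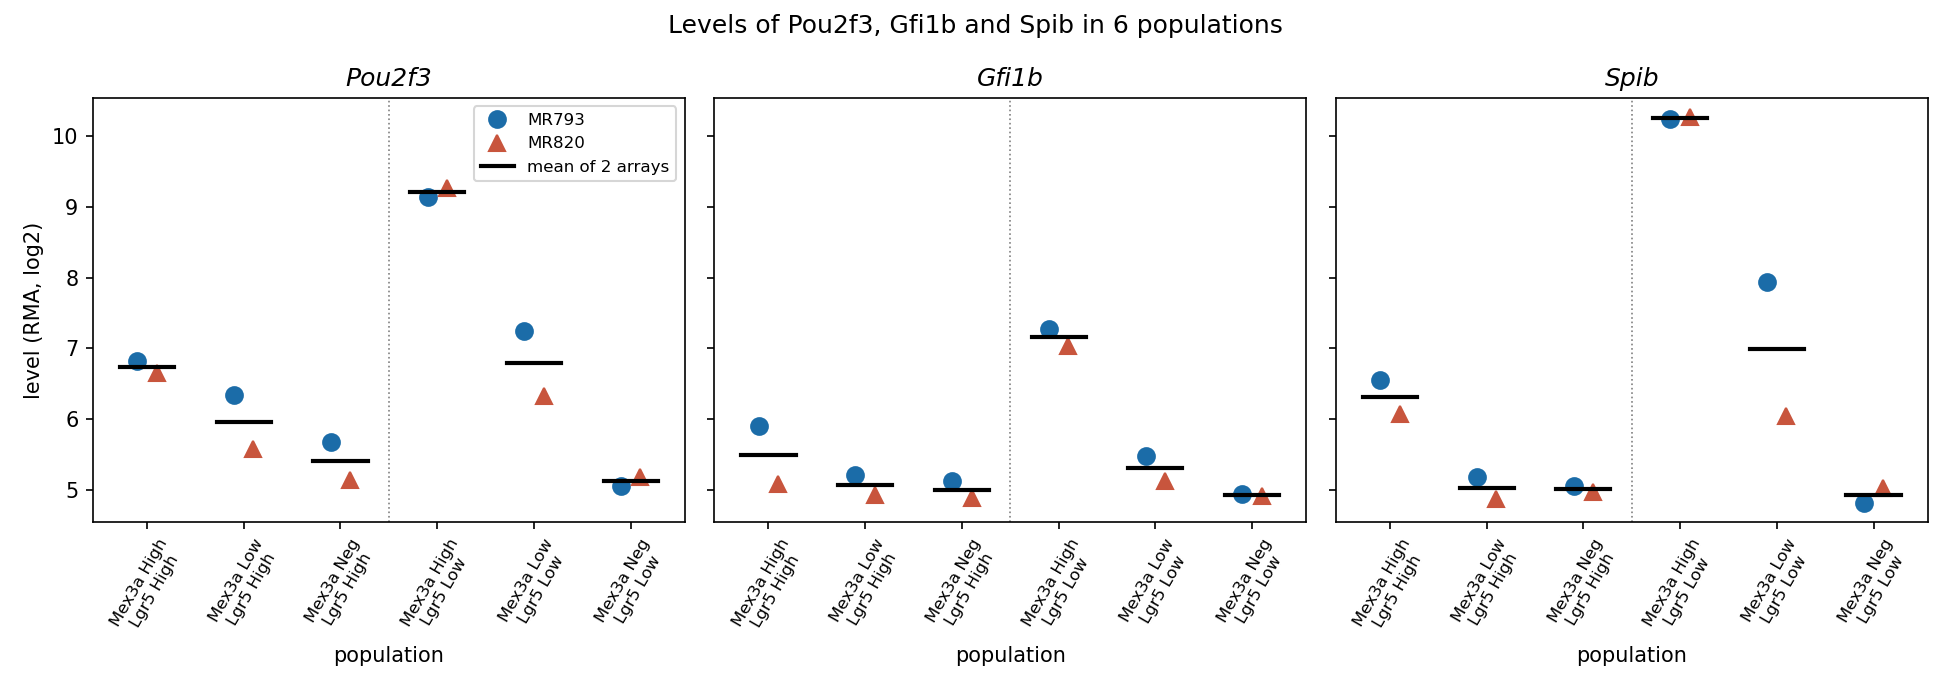
Levels of Pou2f3, Gfi1b and Spib (RMA log2, vertical axis) in the 6 populations (horizontal axis), with a point for each array (circles MR793, triangles MR820) and a line at the mean of the 2 arrays. The Mex3a High Lgr5 Low arrays stand above the other 10 in each panel, at 9.14 and 9.27, 7.27 and 7.04, and 10.24 and 10.26.

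Ordered by mean, Pou2f3 averaged 9.20 ± 0.09 in Mex3a High Lgr5 Low (SD, n = 2 here and below), 6.79 ± 0.65 in Mex3a Low Lgr5 Low, 6.74 ± 0.12 in Mex3a High Lgr5 High, 5.96 ± 0.54 in Mex3a Low Lgr5 High, 5.41 ± 0.38 in Mex3a Neg Lgr5 High, and 5.13 ± 0.09 in Mex3a Neg Lgr5 Low. Spib had the same order, at 10.25 ± 0.02, 7.0 ± 1.34, 6.32 ± 0.34, 5.04 ± 0.22, 5.02 ± 0.06 and 4.93 ± 0.14. For both genes Mex3a Low Lgr5 Low and Mex3a High Lgr5 High overlapped, as did neighbours among the last 3. In Gfi1b, Mex3a High Lgr5 Low at 7.15 ± 0.17 was followed by Mex3a High Lgr5 High at 5.50 ± 0.57 and Mex3a Low Lgr5 Low at 5.31 ± 0.24. The last 3 stood at 5.08 ± 0.19, 5.01 ± 0.16 and 4.93 ± 0.01, and every neighbouring pair below the first overlapped.

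Among Lgr5 Low cells, Mex3a High against Mex3a Neg asks how the 3 genes differ with the Mex3a gate outside the Lgr5 High gate. All 3 were called higher in Mex3a High by limma at an adjusted p under 0.05, where 1.23% of the 45037 probe sets were called higher. Spib rose by 5.32 ± 0.48 (log2 difference ± SE, n = 2 against 2, adjusted p = 0.000345), which is 39.9-fold, with 5.41 in MR793 and 5.23 in MR820. Pou2f3 rose by 4.08 ± 0.34 (adjusted p = 0.000219), or 16.9-fold, with 4.08 in both replicates. Gfi1b rose by 2.22 ± 0.25 (adjusted p = 0.00148), or 4.67-fold, with 2.33 and 2.11. For each gene the 2 replicate values lay within 1 SE of the fitted change, and the arrays of the 2 populations did not overlap, which held for 19.1% of all probe sets with Mex3a High above. In populations of many cells like these, fewer cells of a type and less RNA per cell cannot be told apart.

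Against Mex3a Low, the Mex3a High cells of the Lgr5 Low gate were again higher in all 3 genes, where 0.637% of probe sets were called higher. Spib was higher by 3.25 ± 0.48 (limma adjusted p = 0.0149), with 2.30 in MR793 and 4.21 in MR820. Pou2f3 was higher by 2.41 ± 0.34 (adjusted p = 0.0119), with 1.89 and 2.93, and Gfi1b by 1.84 ± 0.25 (adjusted p = 0.0101), with 1.79 and 1.90. This comparison uses the same Mex3a High Lgr5 Low arrays as the one against Mex3a Neg. Some calls were lost with 1 array left out. Over the arrays left out in turn, the difference ran from 1.95 to 2.87 for Pou2f3, 1.67 to 2.02 for Gfi1b and 2.31 to 4.20 for Spib. Without the MR793 array of Mex3a High Lgr5 Low the difference was 2.47 for Pou2f3, 1.72 for Gfi1b and 3.26 for Spib (limma adjusted p = 0.104, 0.124 and 0.143). Without the MR820 array of that population it was 2.35 for Pou2f3 and 3.24 for Spib (adjusted p = 0.0940 and 0.102). Without the MR820 array of Mex3a Low Lgr5 Low the difference was 1.95 for Pou2f3 (adjusted p = 0.127) and 1.67 for Gfi1b (adjusted p = 0.157). Fitted on the arrays of the Lgr5 Low gate alone, Spib kept its difference of 3.25 but was not called (adjusted p = 0.0548).

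Mex3a Low against Mex3a Neg among Lgr5 Low cells called none of the 3 genes, where limma called 5 probe sets higher, 0.0111% of all. Spib differed by 2.07 ± 0.48 (adjusted p = 1.00), Pou2f3 by 1.67 ± 0.34 (adjusted p = 0.707) and Gfi1b by 0.38 ± 0.25 (adjusted p = 1.00). Both Mex3a Low arrays lay above both Mex3a Neg arrays for all 3 genes, as for 14.6% of all probe sets. By their array strip labels, the MR820 arrays of Mex3a High and Mex3a Low in this gate were on strip 2. The MR820 array of Mex3a Neg was on strip 3. In MR820 the differences from Mex3a Neg in this gate thus cannot be told apart from strip. The 2 replicates of Mex3a Low Lgr5 Low differed more than those of any other population in Pou2f3 and Spib. The difference was 3.11 in MR793 and 1.02 in MR820 for Spib, 2.19 and 1.14 for Pou2f3, and 0.54 and 0.21 for Gfi1b. Without the MR820 array of that population Spib differed by 3.01 (limma adjusted p = 0.00884).

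Among Lgr5 High cells each of the 3 genes had a positive Mex3a High against Mex3a Neg difference in both replicates, and none was called. In all, limma called 0 probe sets here, with 1830 at an unadjusted p under 0.05. Pou2f3 differed by 1.33 ± 0.34, being 1.14 in MR793 and 1.52 in MR820, or 1.24 when the array that stood apart was left out. Spib differed by 1.30 ± 0.48, with 1.50 and 1.11, and by 1.07 without that array. Gfi1b differed by 0.49 ± 0.25, with 0.78 and 0.20, and by 0.081 without it. The adjusted p was 0.542 for each gene, and 1.00 without the array. Both Mex3a High arrays lay above both Mex3a Neg arrays for Pou2f3 and Spib, as for 14.6% of all probe sets, while those of Gfi1b overlapped. Without the MR820 array of Mex3a High Lgr5 High, which leaves the array that stood apart as the only one of its population, all 3 genes were called (1.41, 0.89 and 1.54 for Pou2f3, Gfi1b and Spib, limma adjusted p = 0.0133, 0.00307 and 0.0406), along with 24571 probe sets in all.

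Against Mex3a Low in the Lgr5 High gate, where limma called 0 probe sets (1865 at an unadjusted p under 0.05), the Mex3a High cells differed by 1.29 ± 0.48 in Spib, 0.78 ± 0.34 in Pou2f3 and 0.42 ± 0.25 in Gfi1b (adjusted p = 0.582 each). Without the array that stood apart these were 1.05, 0.69 and 0.017. Leaving out the MR820 array of Mex3a High Lgr5 High leaves the array that stood apart as the only one of its population. Spib then differed by 1.52 and Gfi1b by 0.83, and calls made there rest on that array. Mex3a Low and Mex3a Neg differed by 0.55 ± 0.34 in Pou2f3, 0.064 ± 0.25 in Gfi1b and 0.019 ± 0.48 in Spib (adjusted p = 1.00 each), with 0 probe sets called (199 at an unadjusted p under 0.05). The 95% interval of this last difference was -0.21 to 1.31 for Pou2f3, -0.50 to 0.63 for Gfi1b and -1.05 to 1.09 for Spib, so a difference of 1 lay inside it for Pou2f3 and Spib.

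Between the Lgr5 gates, the 3 genes were lower in Lgr5 High than in Lgr5 Low within Mex3a High cells, where 0.93% of probe sets were called lower. Spib was lower there by -3.93 ± 0.48 (limma adjusted p = 0.00335), a 15.2-fold difference, with -3.68 in MR793 and -4.18 in MR820. Pou2f3 differed by -2.47 ± 0.34 (adjusted p = 0.00727; -2.32 and -2.61) and Gfi1b by -1.66 ± 0.25 (adjusted p = 0.0132; -1.37 and -1.94). Without the array that stood apart all 3 were still called, at -4.17, -2.55 and -2.06 for Spib, Pou2f3 and Gfi1b, where 1.38% of probe sets were called lower. Without 1 array of Mex3a High Lgr5 Low, MR793 or MR820, the difference was -2.53 and -2.40 for Pou2f3 (limma adjusted p = 0.0659 and 0.0672) and -1.54 and -1.78 for Gfi1b (adjusted p = 0.148 and 0.0604). Each array was also labelled by its array strip. Strip 1 held only Lgr5 High arrays and strip 3 only Lgr5 Low arrays. In MR793 these were all the arrays of each gate, so its differences between the Lgr5 gates cannot be told apart from strip. In MR820 both Mex3a High arrays were on strip 2. With the array strip and the replicate as blocks the adjusted p for Pou2f3 was 0.0854, and with array weights none of the 3 was called (adjusted p = 0.938 for Gfi1b and 1.00 for Pou2f3 and Spib).

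In Mex3a Low cells Lgr5 High differed from Lgr5 Low by -1.96 ± 0.48 in Spib (limma adjusted p = 0.872), -0.83 ± 0.34 in Pou2f3 and -0.24 ± 0.25 in Gfi1b (adjusted p = 1.00 each), where 0.00222% of probe sets were called lower. The Spib difference came to -2.75 in MR793 and -1.17 in MR820, or -2.90 with the MR820 array of Mex3a Low Lgr5 Low left out (adjusted p = 0.0139). In Mex3a Neg cells Lgr5 High and Lgr5 Low differed by 0.28 ± 0.34 in Pou2f3, 0.079 ± 0.25 in Gfi1b and 0.087 ± 0.48 in Spib (adjusted p = 1.00 each), with 0 probe sets called (989 at an unadjusted p under 0.05).

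The difference between the gates was tested as the Mex3a High against Mex3a Neg change in Lgr5 High cells minus that in Lgr5 Low cells. It was -4.01 ± 0.68 for Spib (limma adjusted p = 0.0511), -2.75 ± 0.48 for Pou2f3 (adjusted p = 0.0638) and -1.74 ± 0.36 for Gfi1b (adjusted p = 0.142). None passed, while 149 probe sets were called lower, 0.331% of all. Both replicates gave the same sign for each gene, at -3.91 and -4.12, -2.94 and -2.56, and -1.56 and -1.92. With the replicate as a block all 3 were called, at limma adjusted p = 0.0411 for Spib, 0.0350 for Pou2f3 and 0.0390 for Gfi1b. They were also called when the array that stood apart was left out, at -4.25 (adjusted p = 0.0347), -2.83 (adjusted p = 0.0465) and -2.14 (adjusted p = 0.00437), where 0.622% of probe sets were called lower. Leaving out the MR820 array of that population leaves the array that stood apart as its only array, so calls made there rest on it. The difference was then -3.78 for Spib and -1.33 for Gfi1b. Leaving out an array of Mex3a Low Lgr5 Low, which enters only through the spread, also called Spib and Pou2f3, at limma adjusted p = 0.00120 and 0.0338 without MR793 and 0.00136 and 0.0347 without MR820. None was called with strip and replicate blocks together (adjusted p = 0.0723 for Spib, 0.165 for Pou2f3 and 0.102 for Gfi1b) or with array weights (adjusted p = 1.00 each). The calls of this test therefore depended on the fit, while the value closest to 0 in any of the 3 genes and settings run was -1.33. Apart from the main fit and the fit without the array that stood apart, no share over all probe sets stands beside these calls. The number of probe sets called in all differed between settings and is given below only as a range.

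**Figure D2:**
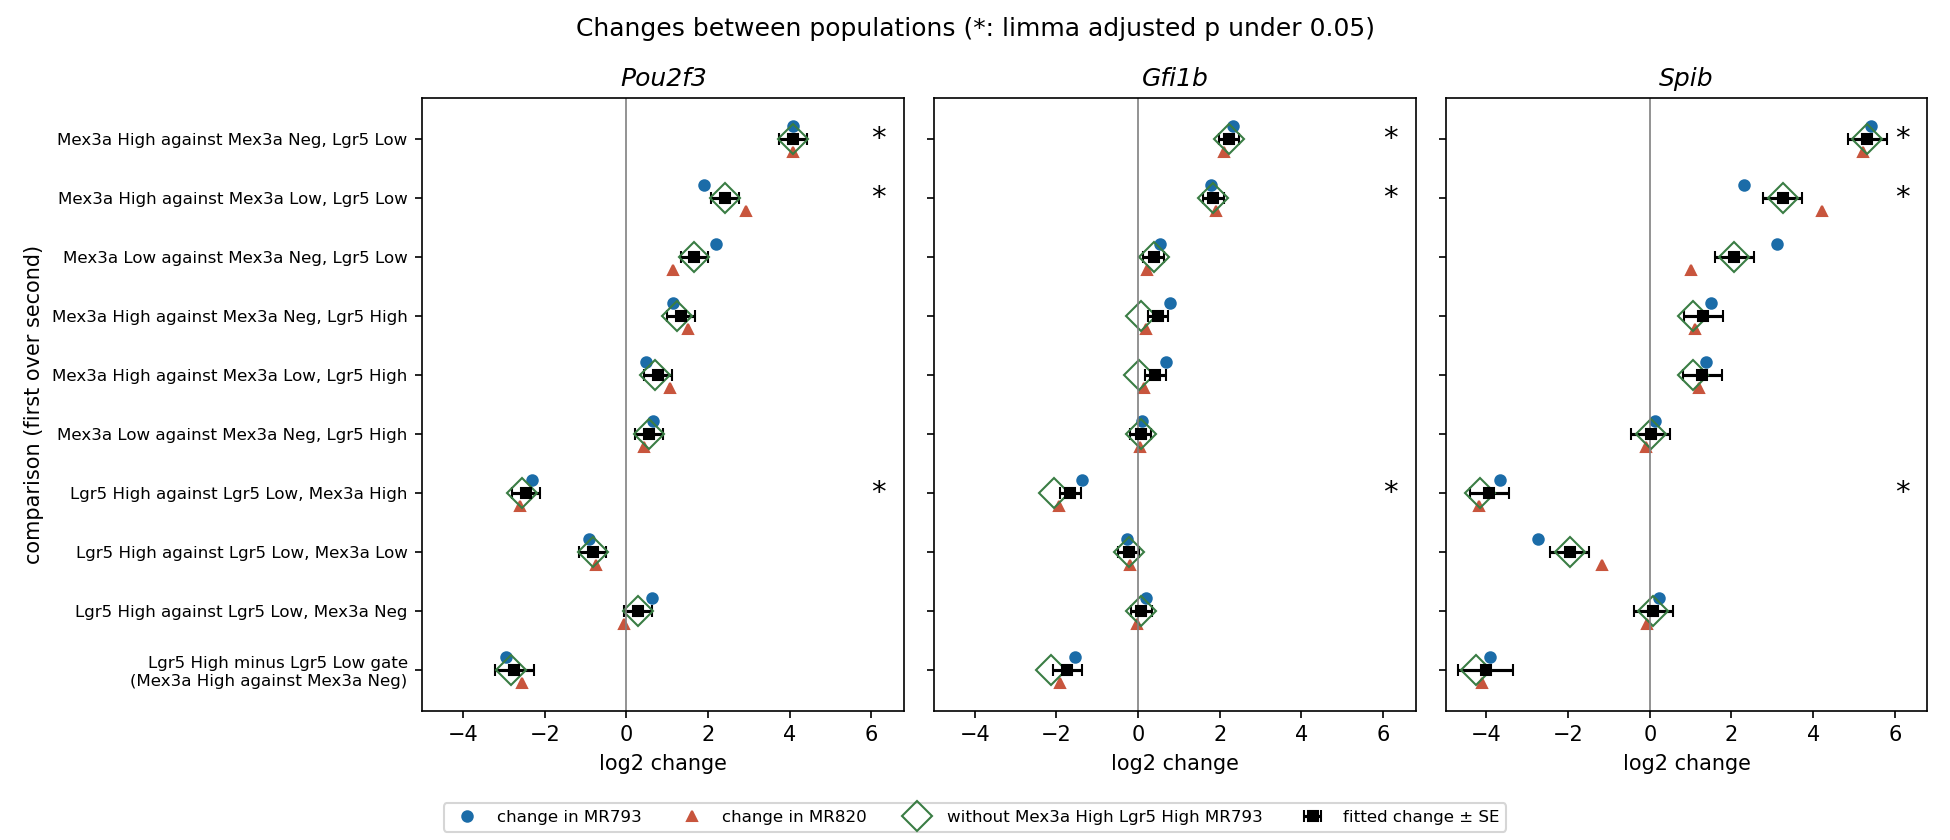
Changes of Pou2f3, Gfi1b and Spib in the 10 comparisons (log2, horizontal axis, first population over second), as the fitted change with its SE (squares), the change in each replicate (circles MR793, triangles MR820) and the fit without the array that stood apart (diamonds). Asterisks mark a limma adjusted p under 0.05, which all 3 genes reached in the same 3 comparisons, each with Mex3a High Lgr5 Low on 1 side.

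The measured relatives of the 3 factors were read beside them. Of the family list, 5 of 6 genes were measured, and 0 were called between Mex3a High and Mex3a Neg of the Lgr5 Low gate, where 1.64% of genes, taken as the brightest probe set of each, were called higher. In so short a list a count of 0 is near that share and says little about the relatives. Their median difference was 0.078, with -0.014 over all genes. Pou2f2, the POU factor of B cells, differed by 0.088, and Pou2af1, a B cell coactivator of POU factors, by 0.0094 at levels of 4.14 to 4.29 in all 12 arrays. Gfi1, the paralog of Gfi1b that secretory cells use, differed by 0.20. Spi1 and Spic, the nearest Ets relatives of Spib and factors of myeloid cells and macrophages, differed by 0.078 and -0.062. The limma adjusted p was 1.00 for each of the 5.

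The corepressors that GFI1B recruits were measured at 6 of 7, and 0 were called in the same comparison, with a median difference of 0.043. This count too is near the share of 1.64% over all genes. The demethylase gene Kdm1a differed by 0.29 and its partner Rcor1 by -0.00043 (limma adjusted p = 1.00 each). Over the 12 arrays Kdm1a lay at 11.65 to 12.45.

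Of the other regulators linked to tuft cells or their progenitors, 11 of 12 were measured. In Mex3a High against Mex3a Neg of the Lgr5 Low gate 3 were called higher, where 1.64% of genes were. All 11 differences were positive, where 7919 of 17097 genes were, with a median of 0.89. The 3 were 1810046K07Rik at 3.43 ± 0.31 (limma adjusted p = 0.00036), the homeobox factor gene Hmx2 at 1.93 ± 0.28 (adjusted p = 0.00743) and the Ets factor gene Etv1 at 1.13 ± 0.15 (adjusted p = 0.00462). None of the 3 was in the family list. Hmx2 stood at 6.95 in MR793 and 7.0 in MR820 of Mex3a High Lgr5 Low, against 4.91 and 5.19 in Mex3a Neg Lgr5 Low, and the other 8 arrays lay between 4.91 and 6.09. Ascl2, a stem cell factor, differed by 0.23, and Atoh1, the factor that secretory cells require, by 0.28 (adjusted p = 1.00 each). Sox9, a factor of crypt progenitors, differed by 0.90 ± 0.38 (adjusted p = 0.754) and was called when the array that stood apart was left out (adjusted p = 0.00192), when 6 of the 11 and 3.87% of genes were called higher.

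The effector genes of tuft cells, those for their signalling, cytokine and lipid mediator proteins, were also higher where the 3 factors were. Of the 40 listed, 34 were measured, and in Mex3a High against Mex3a Neg of the Lgr5 Low gate 25 were called higher and 0 lower, with a median of 3.25, where 1.64% of genes were called higher. The kinase gene Dclk1, a marker of the cell type, rose by 6.27 ± 0.32 (limma adjusted p = 2.48e-05). Alox5ap, which leukotriene synthesis needs, rose by 5.52 ± 0.33, the cation channel gene Trpm5 by 5.18 ± 0.38 and the actin-binding protein gene Avil by 4.88 ± 0.29. The cytokine gene Il25 rose by 1.51 ± 0.20 (adjusted p = 0.00382), at 6.31 and 6.27 in Mex3a High, against 4.75 and 4.81 in Mex3a Neg. The list was compiled with results of these data known.

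The same list had 22 of 34 genes called higher, with a median of 2.17, in Mex3a High against Mex3a Low of the Lgr5 Low gate, where 0.813% of genes were called higher. In Mex3a Low against Mex3a Neg of that gate 3 of 34 were called, with a median of 1.03, where 0.0292% of genes were. These were Sh2d6, a tuft cell adaptor gene, at 3.72, Dclk1 at 3.58 and Avil at 2.60. Without the array that stood apart 6 of 34 were called, where 0.0877% of genes were, and limma called 0 probe sets in this comparison when any 1 of 8 of the 12 arrays was left out or with strip and replicate blocks. In Lgr5 High cells 0 of 34 were called between Mex3a High and Mex3a Neg, where 0 of 17097 genes were. Of the 34, 32 were positive, where 10110 of the 17097 genes were, and the median was 0.56 beside 0.073 over all genes. Without the array that stood apart these medians were 0.49 and -0.014. Dclk1 differed there by 2.99 ± 0.32 (limma adjusted p = 0.128), Trpm5 by 2.33 and Il25 by 0.37, or by 2.92, 1.95 and 0.037 without that array. Between the Lgr5 gates of Mex3a High cells 24 of 34 were called lower in Lgr5 High, where 1.23% of genes were. The median of the 34 was -2.43, or -2.54 without the array that stood apart. The difference between the gates was called for 15 of 34, all lower, with a median of -2.55, where 0.386% of genes were called lower. Without the array that stood apart it was called for 23 of 34, where 0.842% of genes were called lower.

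**Figure D3:**
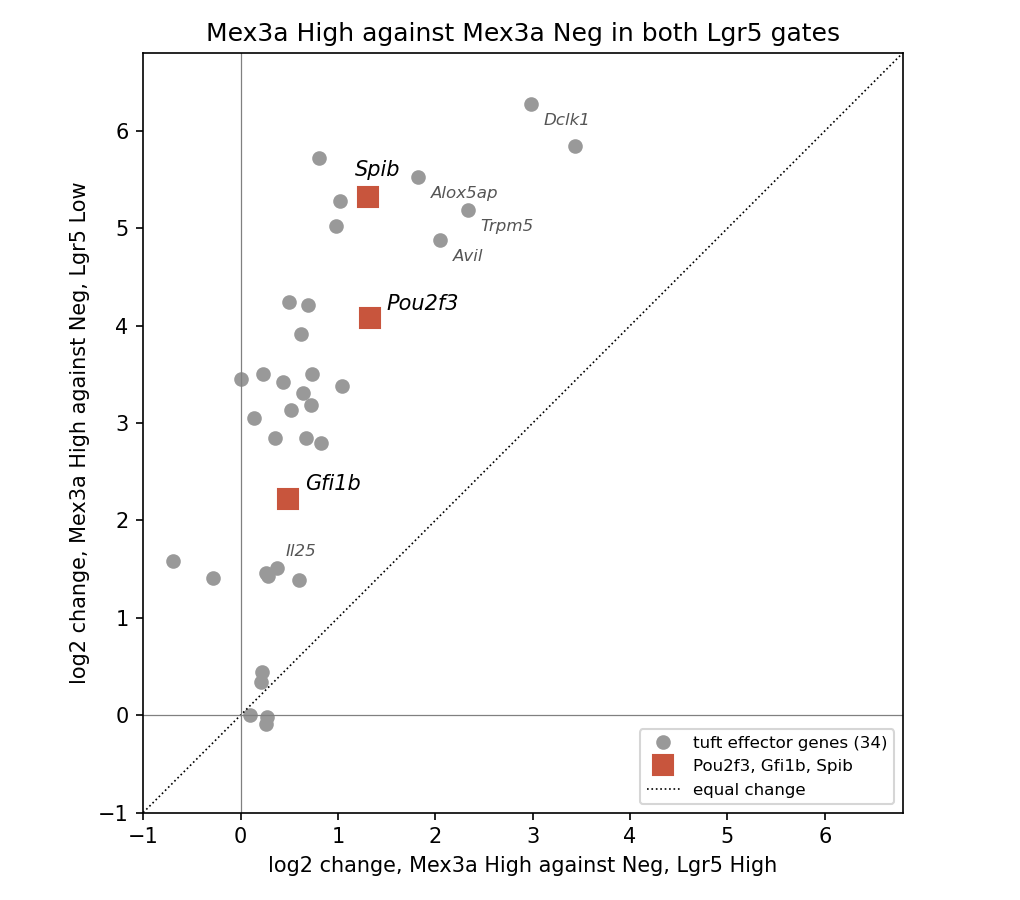
Change of each gene in Mex3a High against Mex3a Neg cells (log2) in the Lgr5 High gate (horizontal axis) and in the Lgr5 Low gate (vertical axis), for Pou2f3, Gfi1b and Spib (squares) and the 34 tuft effector genes (circles). The 3 factors lie above the line of equal change, at 1.33 in Lgr5 High and 4.08 in Lgr5 Low for Pou2f3, 0.49 and 2.22 for Gfi1b, and 1.30 and 5.32 for Spib.

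Genes of enteroendocrine and Paneth cells were also higher in Mex3a High Lgr5 Low cells. Of 10 enteroendocrine genes 9 were called higher in Mex3a High than in Mex3a Neg of the Lgr5 Low gate, where 1.64% of genes were, with a median of 3.90, and the mean level of the list stood at 10.23 and 10.12 in Mex3a High, against 6.39 and 6.04 in Mex3a Neg. Of the Paneth cell list 4 of 6 were measured and 3 were called higher, the defensin gene Defa21 at 5.36, the protease gene Mmp7 at 3.25 and the lectin gene Itln1 at 2.95. Goblet cell genes had 0 of 6 measured called, with a median of -0.19, enterocyte genes 0 of 7, with 0.43, and stem cell genes 0 of 8, with 0.077. These counts of 0 are near the share over all genes. The tuft effector list stood at 9.04 and 9.07 in Mex3a High Lgr5 Low, against 5.97 and 6.02 in Mex3a Neg Lgr5 Low. In Mex3a Low Lgr5 Low MR793 exceeded MR820 for each of the 3 factors. There MR793 also exceeded MR820 in the tuft effector list (7.49 and 6.85) and in the enteroendocrine list (8.85 and 7.76). The enterocyte list (10.88 and 10.23) and the goblet list (11.78 and 11.36) were higher in MR793 as well. The Paneth list (9.995 and 10.15) and the stem cell list (8.55 and 8.85) went the other way. In no other population did the replicates differ as much in the tuft effector or the enteroendocrine list. The enterocyte list differed more in Mex3a Neg Lgr5 Low (11.63 and 9.71) and the goblet list in Mex3a Low Lgr5 High (10.58 and 8.81). The cause of the replicate difference was not tested. Between the Lgr5 gates of Mex3a High cells 7 of the 10 enteroendocrine genes were called lower in Lgr5 High, where 1.23% of genes were. The median of the 10 was -3.29 with and without the array that stood apart. Of the 4 Paneth genes 0 were called between the Lgr5 gates of Mex3a High cells. Their median was 0.013, or -0.19 without the array that stood apart. The Paneth list stood at 11.19 and 10.76 in Mex3a High Lgr5 High, the 11.19 in the array that stood apart. In Mex3a High Lgr5 Low it stood at 11.04 and 10.78. The part of these cell types in the results on Pou2f3, Gfi1b and Spib was not tested.

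Over the 12 arrays the mean of the tuft effector list correlated with Spib at r = 0.994, with Pou2f3 at 0.976 and with Gfi1b at 0.944. For Spib, Pou2f3 and Gfi1b in that order, the enteroendocrine list stood at 0.981, 0.942 and 0.896, the other regulators linked to tuft cells at 0.921, 0.963 and 0.956, the M cell list at 0.852, 0.858 and 0.851, and the Paneth list at 0.516, 0.652 and 0.533. The T, mast and myeloid cell list stood at 0.417, 0.450 and 0.521, and at 0.830, 0.826 and 0.812 without the array that stood apart. Also without it, the tuft effector list stood at 0.996, 0.980 and 0.961 and the M cell list at 0.889, 0.885 and 0.855. These are descriptions over arrays that share 6 populations, not tests. Among the 3 factors Pou2f3 and Spib correlated at 0.974, Gfi1b and Spib at 0.948 and Pou2f3 and Gfi1b at 0.946.

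Markers of the other cells that use these factors were read in Mex3a High against Mex3a Neg of the Lgr5 Low gate, where 1.64% of genes were called higher. In lists this short a count of 0 is near that share and says little about the cell type. Of 9 M cell genes 2 were called higher, Anxa5 at 2.00 and Marcksl1 at 1.78. Gp2, the M cell receptor for bacteria, differed by 0.066, Ccl20 by 0.019 and Sox8 by 0.020. The M cell list mean was highest in Mex3a High Lgr5 Low, at 7.38 and 7.22, against 6.69 and 6.82 in Mex3a Neg Lgr5 Low, and ran over 6.49 to 7.38 across the 12 arrays. Of the B cell list 7 of 8 genes were measured and 0 called, and the list mean stayed at 5.31 to 5.43 in 11 arrays, with 6.00 in the array that stood apart. The plasmacytoid dendritic cell list had 0 of 4 measured genes called. Of the red cell and megakaryocyte genes, markers of the lineage where Gfi1b is best known, 8 of 10 were measured and 0 called, at list means of 5.93 to 6.10 in 11 arrays and 6.59 in the array that stood apart. Of 12 T, mast and myeloid cell genes only the receptor gene Kit was called, at 2.02 ± 0.25 (limma adjusted p = 0.00285).

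**Figure D4:**
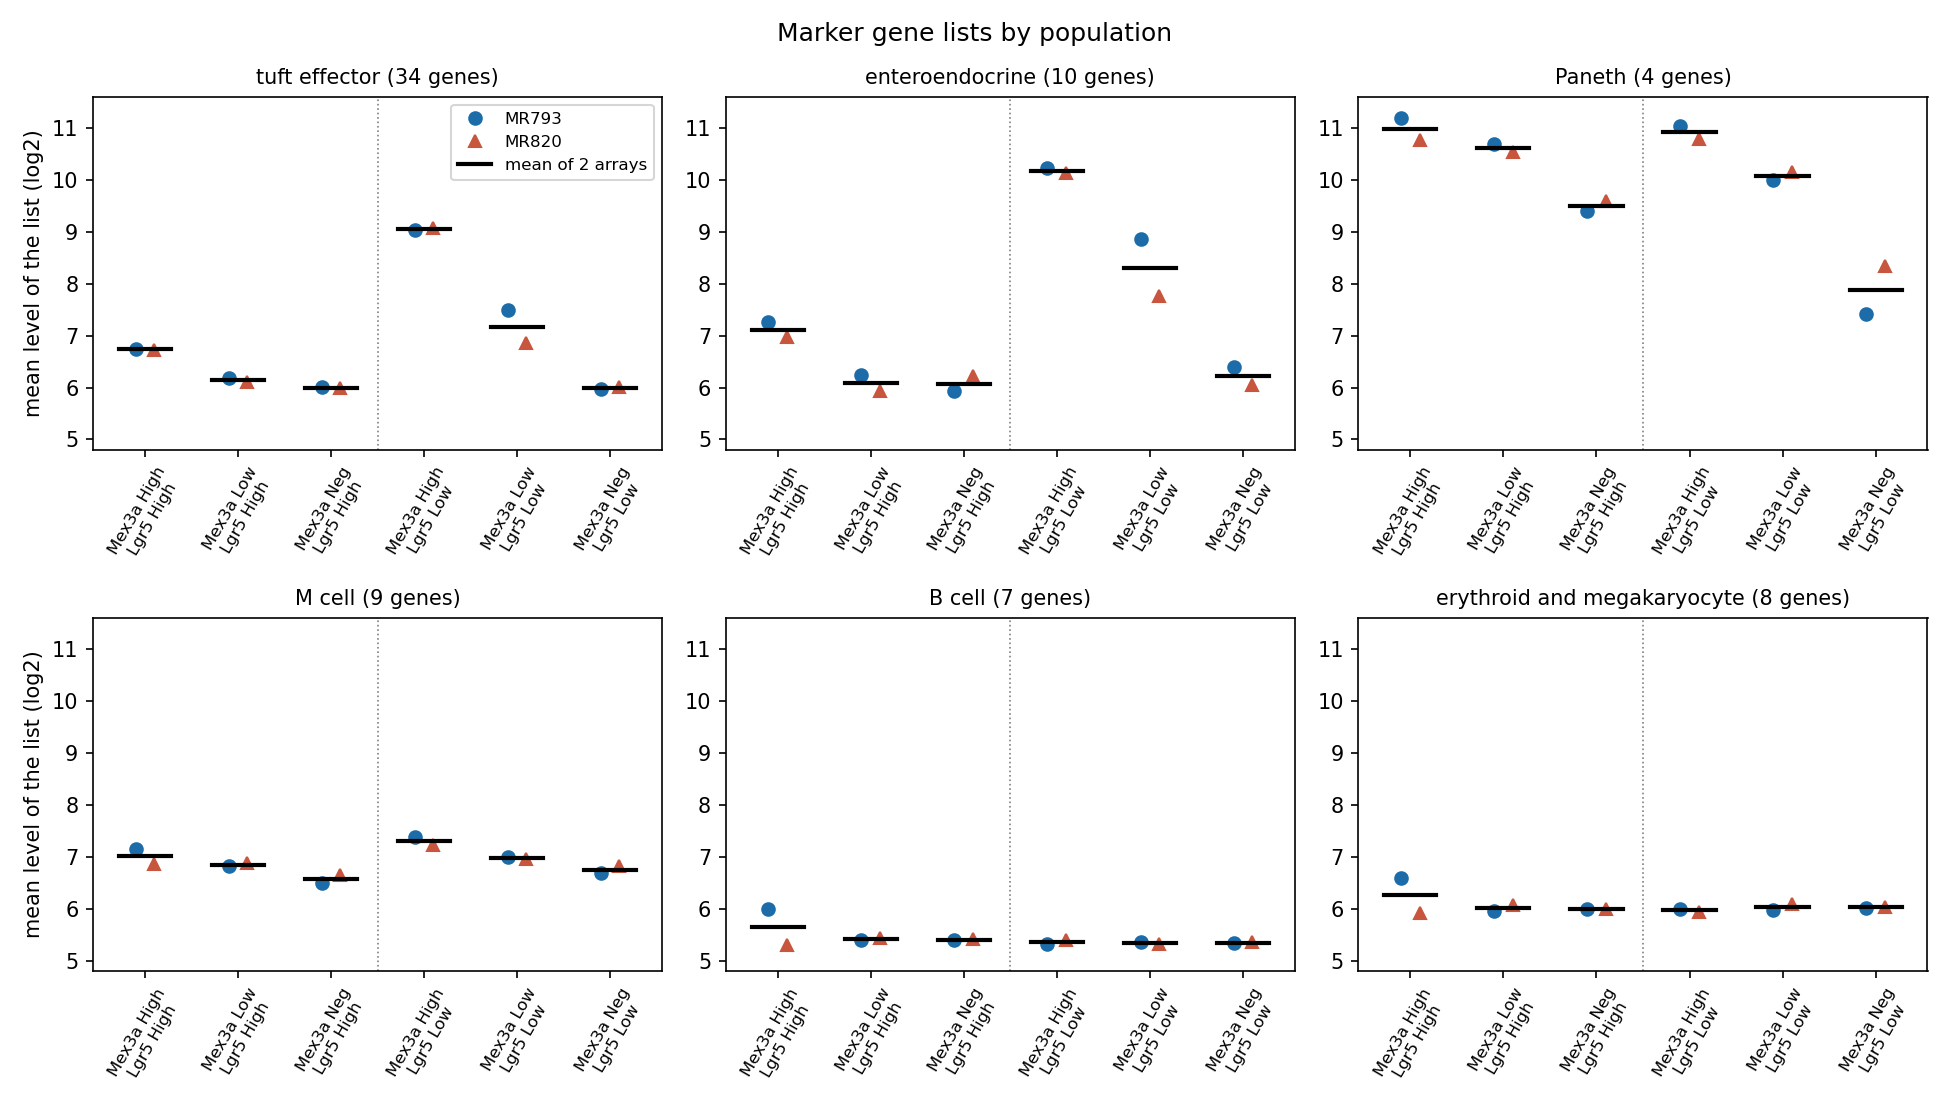
Mean level of 6 marker lists (log2, vertical axis) in the 6 populations (horizontal axis), with a point for each array (circles MR793, triangles MR820) and a line at the mean of the 2 arrays. The tuft effector and enteroendocrine lists are highest in Mex3a High Lgr5 Low, at 9.04 and 9.07 and at 10.23 and 10.12, and the B cell and red cell lists are flat except for the array that stood apart.

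Likeness of pattern was measured as Pearson's r over the 12 arrays among 15433 genes. Genes with Gm, Rik, LOC and similar names, 1810046K07Rik among them, were passed over. The genes most like Pou2f3 were Gfra3, a receptor gene of the GDNF family, at 0.981, the leukotriene enzyme gene Alox5 at 0.979, Trpm5 and Spib at 0.974 and Limd2 at 0.974. Spib was most like Alox5 at 0.995, the glycogen phosphorylase gene Pygl at 0.992, Baiap3 and the ghrelin gene Ghrl at 0.991 and Limd2 at 0.989. Gfi1b was most like the adenylyl cyclase gene Adcy5 at 0.990, Fcna at 0.988, and Pfkfb3, Arhgap4 and the leukotriene C4 synthase gene Ltc4s at 0.987. Gfi1b ranked 45 for Pou2f3 and 104 for Spib, while Spib ranked 4 for Pou2f3. Without the array that stood apart these ranks were 70, 112 and 10. Also without it, r was 0.983 for Gfra3 with Pou2f3, 0.996 for Alox5 with Spib and 0.991 for Adcy5 with Gfi1b, and their ranks were 2, 1 and 3.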

How the data were processed

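The deposited values are RMA log2 expression levels, 1 per probe set; RMA is named in the submitters' processing notes, without the settings the authors used. The 12 columns were joined to the samples by name, with 0 columns of values left over. Of 45141 probe sets, 104 controls were left out and 45037 were fitted with limma 3.58.1 (R 4.3.3) as 6 population means, with eBayes and a trend (6 residual and 3.55 prior degrees of freedom). Benjamini-Hochberg adjustment ran over all 45037 in each comparison, and an adjusted p under 0.05 was called. Gene names come from the platform annotation; 28898 probe sets name 1 gene. For lists the probe set with the highest mean stood for a gene, for 17097 genes in all, with the adjusted p-value over all probe sets. SE is limma's and SD the spread of 2 arrays, and so few arrays limit the precision. RMA gives a dim probe set a value as well, so differences near the floor are compressed. The fit was tested on simulated data of independent normal values, without pairing by replicate or an array that stood apart. That test therefore does not check the calls made here.

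The replicate pairs the populations: 14 of 15 pairs of populations had replicate differences that correlated over 0.1 (lowest -0.129), and 10 of 10 did without the Mex3a High Lgr5 High population (0.364 to 0.549). The pairing is drawn from the replicate label and is not used in the main values. The members, lists, named genes and alternatives were chosen with earlier results of these data known. The named genes are the 3 factors, the 5 genes most like each, the family list, Kdm1a, Rcor1, Ascl2, Sox9, Atoh1, Hmx2 and 5 effectors, and list members needed for a count of 5 or fewer; Chat, Ptgs1 and 4 other effectors were not analysed here. Alternatives were the replicate, the strip or both as blocks, quantile normalization, a common median, a dim filter, 1 probe set a gene, the arrays of a gate, no trend, array weights, and each array left out. Promoters are from RefSeq (GRCm38.p6), read with Python 3.11.15.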

Additional observations from a re-analysis of the deposited data

How the results depend on the processing

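Of 638 values of the 3 genes under 22 alternatives, 583 kept their direction and their side of the threshold. Many of these could not change direction. Leaving out an array of a population not compared, or changing only the spread, keeps the fitted difference as it was. In Mex3a High against Mex3a Neg of the Lgr5 Low gate all 3 genes were called in every setting run, at 4.00 to 4.27 for Pou2f3, 2.10 to 2.37 for Gfi1b and 5.22 to 5.79 for Spib. The filter on dim probe sets removed Gfi1b, which has no value there.

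With the replicate as a block, which uses the pairing, the difference between the gates was called for Pou2f3 (-2.75), Gfi1b (-1.74) and Spib (-4.01), and it changed no other call of the 3 genes. It was also called with the strip as a block (-2.95, -1.88 and -4.48), with a common median (-2.80, -1.79 and -4.07), with quantile normalization for Gfi1b (-1.75) and Spib (-3.93), and with 1 probe set a gene for Spib (-4.01). It was called for none of the 3 with strip and replicate blocks together, without the trend or with array weights, nor for Pou2f3 and Spib with the dim filter. Lgr5 High against Lgr5 Low in Mex3a High cells was not called with array weights (-2.47, -1.66 and -3.93), which gave both Mex3a High Lgr5 High arrays the same low weight of 0.0921, nor for Pou2f3 with strip and replicate blocks (-2.45). Spib in Mex3a High against Mex3a Low of the Lgr5 Low gate was not called with the arrays of the gate alone (3.25, adjusted p = 0.0548). Mex3a Low against Mex3a Neg in Lgr5 High cells turned sign with the strip block for Gfi1b (-0.20) and Spib (-0.12), and with strip and replicate blocks (-0.12 and -0.094). Spib in Lgr5 High against Lgr5 Low of Mex3a Neg cells moved from 0.087 to 0.88 with the strip block and was not called. The cause of these shifts was not tested. No share over all probe sets stands beside the calls of these settings, and the counts are given below only as ranges.

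Leaving out 1 array at a time gave these ranges. In Lgr5 Low cells, Mex3a High against Mex3a Low gave 1.95 to 2.87 for Pou2f3, 1.67 to 2.02 for Gfi1b and 2.31 to 4.20 for Spib, and Mex3a Low against Mex3a Neg 1.21 to 2.12, 0.21 to 0.55 and 1.12 to 3.01. In Lgr5 High cells, Mex3a High against Mex3a Neg gave 1.05 to 1.60 for Pou2f3, 0.081 to 0.89 for Gfi1b and 1.07 to 1.54 for Spib. Mex3a High against Mex3a Low gave 0.39 to 1.16 for Pou2f3, 0.017 to 0.83 for Gfi1b and 1.05 to 1.52 for Spib, and Mex3a Low against Mex3a Neg 0.17 to 0.93, -0.071 to 0.20 and -0.14 to 0.18. The values that turned sign were -0.071 and -0.050 for Gfi1b and -0.14 and -0.025 for Spib, without Mex3a Low Lgr5 High MR793 and without Mex3a Neg Lgr5 High MR820. Lgr5 High against Lgr5 Low gave -2.55 to -2.38 for Pou2f3, -2.06 to -1.25 for Gfi1b and -4.17 to -3.69 for Spib in Mex3a High, -1.29 to -0.37 for Pou2f3, -0.41 to -0.062 for Gfi1b and -2.90 to -1.02 for Spib in Mex3a Low, and 0.012 to 0.56 for Pou2f3, -0.036 to 0.19 for Gfi1b and -0.015 to 0.19 for Spib in Mex3a Neg, turning sign without the MR793 array of Mex3a Neg Lgr5 High for Gfi1b and of Mex3a Neg Lgr5 Low for Spib. The difference between the gates gave -3.02 to -2.48 for Pou2f3, -2.14 to -1.33 for Gfi1b and -4.25 to -3.78 for Spib.

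Counts of called probe sets moved more. Over the alternatives they were 295 to 1917 for 556 in Mex3a High against Mex3a Neg and 101 to 861 for 287 in Mex3a High against Mex3a Low of the Lgr5 Low gate, 0 to 33 for 5 in Mex3a Low against Mex3a Neg, 12 to 25367 for 431 between the Lgr5 gates of Mex3a High, 0 to 85 for 2 in Mex3a Low, 0 to 59 for 0 in Mex3a Neg, and 3 to 18290 for 149 in the difference between the gates. In the Lgr5 High gate they were 0 to 24571 and 0 to 24056 for the 2 comparisons of Mex3a High, both with 0 over all arrays. The counts of 25367, 24571, 24056 and 18290 came without the MR820 array of Mex3a High Lgr5 High. The 2 arrays of a population and dim levels of Gfi1b limit what these data can show.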
